A study of Mus musculus with 4 samples.

Results

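The genes described here encode receptors for the amine transmitters serotonin, noradrenaline, dopamine and histamine, for acetylcholine, and for opioid peptides, neuropeptide Y, somatostatin and cannabinoids. Membership rests on gene symbols and on no measured value: it covers every probe set that the platform annotation assigns to exactly 1 gene symbol beginning Htr, Adra, Adrb, Drd, Chrm, Chrn, Hrh, Adora, Opr (delta, kappa, mu or nociceptin type), Npy (receptors), Sstr or Cnr. The rule reads only symbols, but the families were chosen with earlier results of these data known. It gave 53 probe sets for 44 genes, of 12422 probe sets on the array besides controls. There were 13 probe sets for serotonin receptors, 2 for adrenergic, 3 for dopamine, 2 for muscarinic, 11 for nicotinic, 2 for histamine, 4 for opioid, 7 for neuropeptide Y, 7 for somatostatin and 2 for cannabinoid receptors, and 0 for adenosine receptors.

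Total RNA of 4 mouse hippocampus samples was measured on Affymetrix Murine Genome arrays (MG_U74Av2), which read a transcript with sets of short oligonucleotides, and each sample was measured on 1 array. The labels put all samples in 1 group and give no strain, sex, age or treatment, so the samples were compared only with one another. No label says that they came from separate animals, so the spread between these samples may be technical. Any p-value compares that spread for 1 probe set with the spread usual for probe sets of similar signal. The numbers 1 to 4 are only names. Signals are in quantile normalized array units. Precision is limited by how few arrays there are. Of measured marker genes, 8 of 8 neuronal and 8 of 10 hippocampal principal cell genes were above the signal filter described below, which 50% of all probe sets pass. Each gene was read by its probe set of highest mean, which can raise these counts. Prox1 and Grin2b were the principal cell genes under the filter. Such counts cannot tell hippocampus from other brain tissue and leave the tissue label unchecked.

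Most of these receptors are G protein-coupled proteins; the nicotinic receptors and the serotonin receptor built from Htr3a are ion channels assembled from subunits. In the hippocampus, fibres from the septum bring acetylcholine, fibres from the raphe nuclei bring serotonin and fibres from the locus coeruleus bring noradrenaline, while neuropeptide Y and somatostatin are made by local interneurons. Receptors coupled to Gq raise calcium through phospholipase C, those coupled to Gs raise cyclic AMP, and those coupled to Gi lower it and often act on axon terminals to restrain transmitter release. In tissue RNA, fewer cells of a type and less RNA per cell cannot be told apart.

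Of the 44 genes, 34 had a promoter window in the RefSeq start-site table of mouse assembly GRCm38.p6, which runs from 250 bases before to 50 bases after a gene's start. Among genes with such a window, the analysed receptor gene with the widest range over the samples was Chrna7 and that with the narrowest was Drd2, and both windows are shown to set these extremes side by side. The Chrna7 window lies at chr7:63212477-63212776 on the minus strand and the Drd2 window at chr9:49340153-49340452 on the plus strand. They are printed 5′ to 3′ with the GC box GGGCGG, on either strand, in capitals.
Chrna7: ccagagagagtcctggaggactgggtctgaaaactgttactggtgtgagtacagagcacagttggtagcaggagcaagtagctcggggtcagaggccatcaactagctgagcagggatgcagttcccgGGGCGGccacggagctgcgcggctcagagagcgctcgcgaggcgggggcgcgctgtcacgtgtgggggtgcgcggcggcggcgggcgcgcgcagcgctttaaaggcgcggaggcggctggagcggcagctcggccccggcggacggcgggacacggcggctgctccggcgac
Drd2: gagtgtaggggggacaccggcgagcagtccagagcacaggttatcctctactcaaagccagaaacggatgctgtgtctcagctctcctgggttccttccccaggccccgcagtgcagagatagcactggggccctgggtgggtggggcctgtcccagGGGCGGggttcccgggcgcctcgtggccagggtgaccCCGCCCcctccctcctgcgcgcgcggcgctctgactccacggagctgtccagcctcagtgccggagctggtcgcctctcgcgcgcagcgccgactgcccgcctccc
The window of Chrna7 had a G and C content of 70% and held 1 GC box, and that of Drd2 had 70.3% and held 2. The 2 receptor genes at the extremes of range were therefore close in base composition. Over the receptor genes, GGGCGG on either strand was found in 16 of 34 windows (47.1%), against 35.9% of the 27025 windows of all genes. The TATA box TATAAA was found in 2 of 34 (5.88%, against 14.2% of all genes), CCAAT in 10 of 34 (29.4%, against 37.9%) and the cyclic AMP element half-site TGACGT in 3 of 34 (8.82%, against 7.64%), each on either strand; matches of different motifs were counted separately and may overlap. The median G and C content was 58.3% for the receptor genes and 52.7% for all genes. These are matches of letters in 1 window per gene, the first listed, and are given as a description.

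Of the 53 receptor probe sets, 20 (for 17 genes) had a mean log2 signal above the median of all probe sets, equivalent to 99.6 units, and were analysed further; 37.7% of the receptor probe sets passed this filter, against 50% of all probe sets by construction. Another 10 (18.9%) lay below the floor of 27.7 units, the 25th percentile of normalized values, in all 4 samples, against 14.2% of all probe sets. Of the remainder, 14 were below the floor in 1 to 3 samples and 9 were above it in all samples but under the filter. The mean signals nearest the filter were 104 units for Drd2 inside it and 91.8 units for Npy1r outside it.

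**Figure D1:**
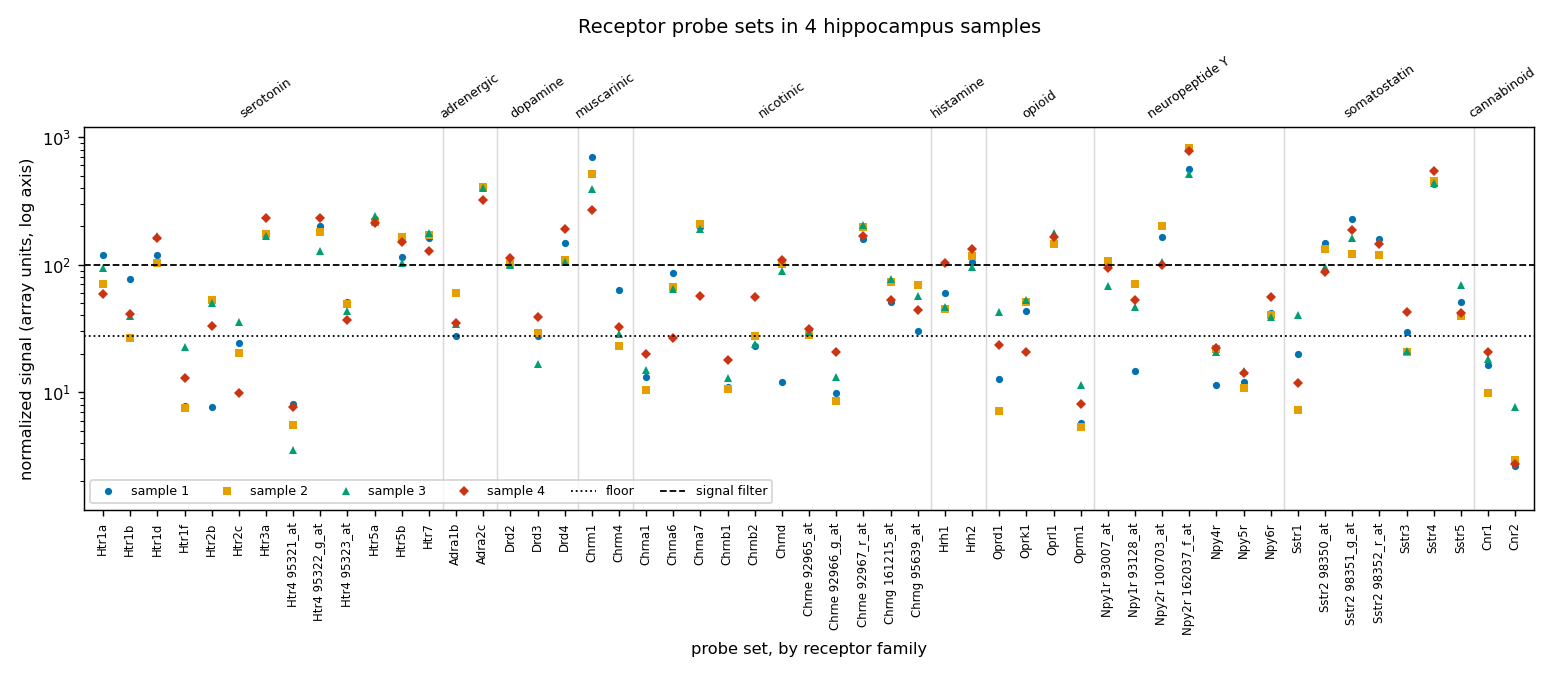
Normalized signal (array units, log axis) of the 53 receptor probe sets, grouped by family, with 1 point per sample; the dotted line is the floor of 27.7 units and the dashed line the signal filter at 99.6 units, which applies to the mean. Both cannabinoid receptor genes lie wholly below the floor, whereas Chrm1, Adra2c, Sstr4 and the higher Npy2r probe set lie well above the filter in every sample; levels of different probe sets are not comparable.

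Passing the signal filter does not show that a transcript was present. Of 20 genes whose products belong to other organs, such as albumin of liver and the protamines of sperm, 18 were measured, each by its probe set of highest mean, and 5 of the 18 passed the filter. The highest mean among them was 319 units, for a probe set of the epidermal gene Lor, and the median was 37.6 units. Detection calls were not used here, and levels of different probe sets are not comparable, so no receptor is called present or absent from its signal.

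Across the samples, the ranges of the receptors were close to those of all analysed probe sets, without matching for signal. Ranges had a median of 0.57 log2 units (1.48-fold) for the 20 analysed receptor probe sets and of 0.53 log2 units (1.44-fold) for all 6211 analysed probe sets. At least 2-fold separated the highest and lowest samples for 3 of the 20 (15%), against 14.4% of all analysed probe sets. All 3 were lowest in sample 4, but 1 of them, of Npy2r, was nearly as low in sample 3 (105 against 100.3 units). Without sample 4, 0 receptor probe sets spanned at least 2-fold, and without samples 1, 2 and 3 there were 2, 2 and 3. Leaving out a sample tends to narrow every range, and the share of all analysed probe sets is not given for these runs. In limma's test of each variance against the intensity trend, with Benjamini-Hochberg adjustment, 0 receptor probe sets passed at 0.05 (smallest adjusted p = 0.730), and the background was 0% of all analysed probe sets. On simulated arrays this test missed shifts larger than the span of any analysed receptor, so a count of 0 does not show that the receptors were steady. At an unadjusted p under 0.05 there were 2 of 20 (10%), Chrna7 and Chrm1, against 5.86% of all. The SD lay above the intensity trend for 7 of the 20, against 45.6% of all analysed probe sets.

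**Figure D2:**
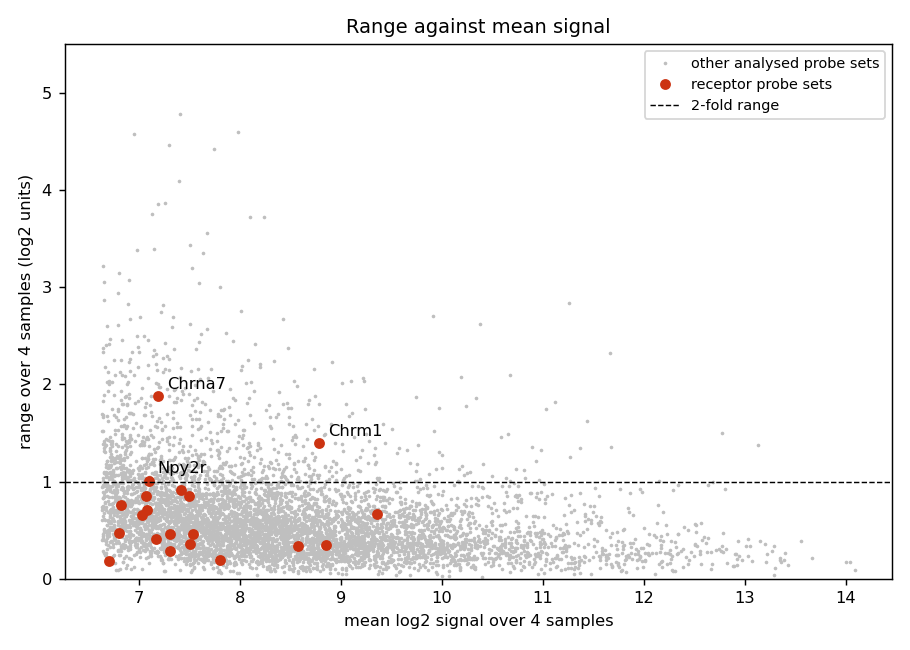
Range over the 4 samples in log2 units against mean log2 signal, with 1 point per analysed probe set; receptor probe sets are red, the others grey, and the dashed line marks a 2-fold range. Chrna7, Chrm1 and 1 probe set of Npy2r lie on or above the line, and the other 17 receptor probe sets lie below it.

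The highest and lowest values of the receptors were spread over all 4 samples. Of the 20, 5 were highest in sample 1, 4 in sample 2, 5 in sample 3 and 6 in sample 4, against 24.6%, 21.5%, 22.4% and 31.2% of all analysed probe sets. The lowest value fell in sample 1 for 2, in sample 2 for 4, in sample 3 for 7 and in sample 4 for 7, against 23.1%, 22.7%, 23.4% and 30.6%. Relative to the mean of the other samples, 11, 10, 8 and 12 of the 20 were higher in samples 1 to 4, against 51.4%, 51.1%, 51.1% and 52.2% of all analysed probe sets. The median log2 deviation of a sample from the mean of the other samples was 0.03, 0.05, -0.10 and 0.12 in samples 1 to 4, while over all analysed probe sets it lay between 0.01 and 0.02. By Dixon's ratio, the gap between an extreme sample and its nearest neighbour as a share of the whole range, a sample lay apart for 4 of the 20, Chrna7, Adra2c, Drd2 and Htr3a, against 6.02% of all analysed probe sets, and in all 4 it was sample 4, which stood apart in 3.16% of all. Sample 4 was the lowest of the samples for Chrna7 and Adra2c and the highest for Drd2 and Htr3a. Between samples, the median absolute log2 difference over the receptors was lowest for samples 1 and 3 (0.15, against 0.21 over all) and highest for samples 1 and 4 (0.35, against 0.30).

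**Figure D3:**
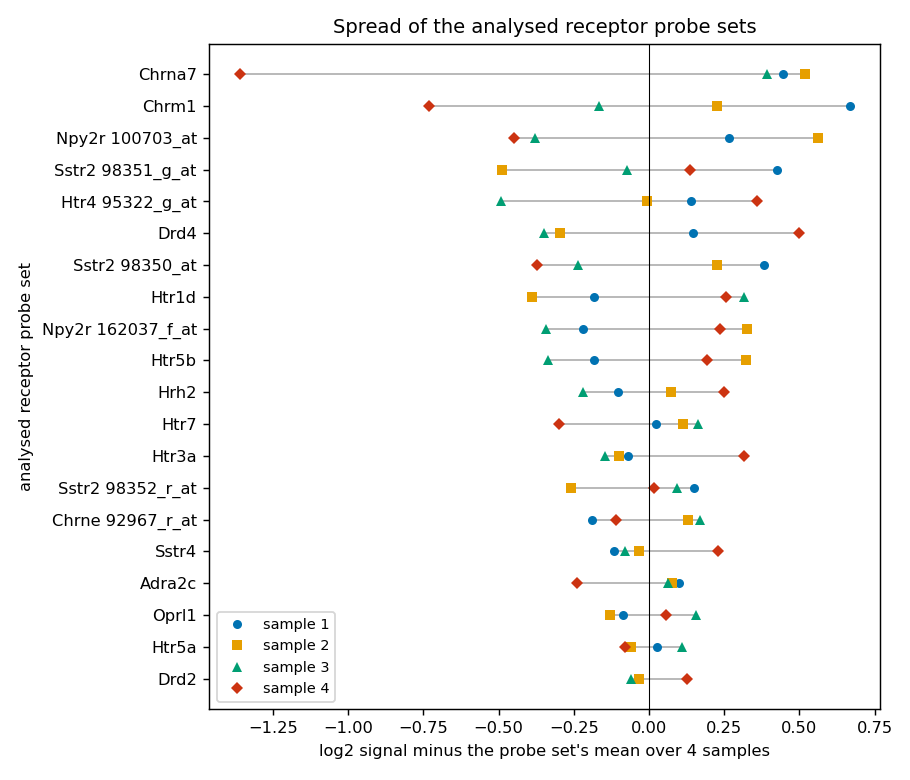
Log2 signal of each of the 20 analysed receptor probe sets minus its own mean over the 4 samples, with 1 marker per sample, ordered from the widest range (top) to the narrowest. Sample 4 is far below the other samples for Chrna7, and is the highest sample for 6 of the 20 probe sets.

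Among the acetylcholine receptors, the signals of Chrm1 and Chrna7 were both lowest in sample 4. Chrm1 encodes the Gq-coupled muscarinic receptor typical of pyramidal cells and gave 702, 517, 394 and 266 units in samples 1 to 4, a mean of 469.8 ± 186 (SD, n = 4) and a 2.64-fold span. Its signals were spread over the whole span, without a sample set apart. Chrna7, the subunit that forms calcium-permeable nicotinic channels on its own, gave 199, 209, 192 and 56.9 units, with a mean of 164 ± 71.96 (SD, n = 4). Its values in samples 1 to 3 lay close together and that in sample 4 was 3.51-fold below their mean on the log scale. The unadjusted p of limma's variance test was 0.0265 for Chrm1 and 0.0258 for Chrna7, and the adjusted p was 0.730 for both. Without sample 4 the span of Chrna7 was 0.12 log2 units and that of Chrm1 0.83, against 1.88 and 1.40 over all samples.

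Sample 4 also had the lowest summed signal of neuronal markers and the highest ratios of 3′ to 5′ signal given here. The summed signal of 8 neuronal marker genes was 20246, 16969, 18110.1 and 14691 units in samples 1 to 4, and 1 of the 8 exceeded in sample 4 its mean over samples 1 to 3, with none below the floor. The summed signal of 10 hippocampal principal cell genes was 9947, 11166, 8403 and 9648 units, highest in sample 2. These genes did not move together in sample 4, where 4 of the 8 analysed exceeded their mean over samples 1 to 3. Camk2b, a calcium-activated kinase subunit of neurons, made the largest part of the sum, with 4760.1, 4807, 3989.6 and 4955 units. Its partner subunit Camk2a, typical of pyramidal cells, gave 357, 629.7, 321 and 29.4 units, in sample 4 14.2-fold below the other samples. The sample 4 value lay just above the floor of 27.7 units, so the size of this fold is uncertain. The adjusted p of Camk2a in limma's variance test was 0.316, the smallest of the array, which it shared with other probe sets. The ratio of 3′ to 5′ signal, a gauge of incomplete RNA or cDNA, was 1.84, 1.64, 1.51 and 2.03 for beta-actin and 0.887, 0.864, 0.981 and 1.15 for Gapdh on deposited signals. For pyruvate carboxylase it was 2.62, 1.81, 3.03 and 3.16, and for 18S RNA 5.01, 4.65, 3.02 and 6.42. That of the transferrin receptor was 1.41, 2.40, 3.36 and 7.20. Sample 4 was the highest for each, but the lowest 5′ signals of the last 3 were only 116, 34.6 and 10.4 units. The part of these differences in the Chrna7 and Chrm1 values was not tested.

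The remaining neuronal acetylcholine receptor genes gave low signals. Chrm4, a Gi-coupled muscarinic receptor, gave 63.7, 23.2, 28.4 and 32.5 units and Chrna6, a subunit best known from midbrain dopamine neurons, gave 85.5, 66.5, 64.9 and 26.8 units. Chrnb2, the usual partner of the alpha4 subunit in brain, gave 22.96, 27.6, 23.8 and 55.6 units, above the floor in sample 4 only. All of these were under the signal filter. The subunits of the muscle receptor (Chrna1, Chrnb1, Chrnd, Chrne and Chrng) were read by 8 probe sets, of which 1 was analysed, a probe set of Chrne with 159.8, 199, 205 and 169 units and a mean of 183 ± 22.3 (SD, n = 4). Chrna1 and Chrnb1 lay below the floor in every sample, from 10.5 to 20.0 units and from 10.7 to 17.8 units. Chrnd gave 12.1, 102, 89.8 and 109.5 units, with sample 1 below the floor and the other samples close together. All 9 skeletal muscle markers listed were measured, with a summed signal of 2047, 2200.2, 1819.7 and 2172 units in samples 1 to 4. Pvalb, which is also made by hippocampal interneurons, made the largest part of this sum, with 1367, 1414, 1203 and 1423 units. Of the 9 markers, 3 passed the filter, Tnnc2, Casq1 and Pvalb (against 50% of all probe sets), and Tnni2 was below the floor in every sample. The part of muscle tissue in these values was not tested.

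Of the 6 analysed probe sets for serotonin receptors, 0 spanned 2-fold over the samples, against 14.4% of all analysed probe sets. With so few probe sets, this count does not set the serotonin receptors apart. Htr5a, a Gi-coupled receptor, gave 228, 214, 241 and 211 units, a mean of 224 ± 13.6 (SD, n = 4) and a 1.14-fold span, the second narrowest among the analysed receptors. Htr7, which is coupled to Gs, gave 162, 172, 178 and 129 units and was lowest in sample 4. Htr3a, the channel subunit that marks a class of interneurons, gave 177, 173, 167 and 231 units, highest in sample 4 and close together in the other samples. The direction of sample 4 was thus opposite for these receptors, by -0.40 log2 units for Htr7 and 0.42 for Htr3a relative to the mean of the other samples.

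Htr1d, a Gi-coupled receptor found on axon terminals, gave 119, 103, 169 and 162 units, higher in samples 3 and 4 than in samples 1 and 2. Htr5b, which is intact in rodents, gave 115, 163, 103 and 149 units, higher in samples 2 and 4. The analysed probe set of Htr4, a Gs-coupled receptor, gave 199, 180.3, 129 and 232 units, lowest in sample 3. Over the 6 analysed probe sets, the unadjusted p of limma's variance test lay between 0.331 for Htr4 and 0.957 for Htr5a. Htr1a, the Gi-coupled receptor of raphe neurons and hippocampal pyramidal cells, gave 119, 70.8, 94.0 and 58.6 units, a 2.03-fold span with sample 1 highest and sample 4 lowest, but its mean of 85.5 units was under the signal filter. Htr1b, a receptor of axon terminals, gave 77.1, 26.8, 39.4 and 40.8 units, and Htr2b gave 7.60, 53.3, 50.1 and 32.9 units. Htr2c, whose transcript is abundant in the choroid plexus, gave 24.6, 20.5, 35.8 and 9.91 units, above the floor in sample 3 only. The summed signal of the 6 choroid plexus markers measured, of 9 listed, was 4228, 2627, 2151 and 3504 units in samples 1 to 4, and its defining gene Ttr gave 2629.5, 1236, 954 and 1820.2 units, so that both were lowest in sample 3. The part of choroid plexus tissue in the Htr2c values was not tested. Htr1f was below the floor throughout, from 7.53 to 22.8 units.

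Adra2c, a Gi-coupled adrenergic receptor, was among the steadier receptors. It gave 409, 403, 399 and 324 units in samples 1 to 4, a mean of 384 ± 40.2 (SD, n = 4), and sample 4 was 1.25-fold below the other samples. Adra1b, the Gq-coupled adrenergic receptor measured, gave 27.4, 60.2, 34.4 and 34.9 units, with sample 2 highest and sample 1 just under the floor. The dopamine receptors Drd2 and Drd4, both coupled to Gi, were analysed. Drd2 had the narrowest span among the analysed receptors, 1.14-fold, with 102, 102, 100.1 and 114 units and a mean of 104 ± 6.36 (SD, n = 4). Drd4 gave 149, 109.5, 106 and 190.1 units, higher in samples 1 and 4, and Drd3 gave 27.8, 29.1, 16.8 and 39.1 units, close to the floor. Striatum, another forebrain structure, holds much Drd2. Of 9 striatal markers listed, 4 were measured, with a summed signal of 1123, 793, 969 and 921 units in samples 1 to 4. Rgs9 gave 39.7, 15.7, 29.3 and 6.22 units, Tac1 69.5, 79.1, 59.2 and 56.02 units, Penk, which other neurons make as well, 894, 562, 735 and 706 units, and Strn 119.8, 137, 146 and 153 units. Among these, Rgs9 and Tac1 were under the signal filter, and the part of striatal tissue in the Drd2 values was not tested. The histamine receptor gene Hrh2, coupled to Gs, gave 104, 118, 96.1 and 133 units and Hrh1, coupled to Gq, gave 60.2, 45.1, 46.5 and 103 units. Both histamine receptors were highest in sample 4, Hrh1 with a mean under the filter.

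Of the opioid receptor genes, that of the nociceptin receptor, Oprl1, was the only 1 of 4 analysed. Its probe set, 104474_s_at, gave 149.6, 145, 177 and 165 units, a mean of 159 ± 14.7 (SD, n = 4) and a 1.22-fold span. Oprk1, the kappa receptor, gave 43.1, 50.96, 53.2 and 20.6 units, below the floor in sample 4, and Oprd1, the delta receptor, gave 12.8, 7.17, 42.8 and 23.6 units, above the floor in sample 3 only. Oprm1, the mu receptor, gave 5.72, 5.33, 11.5 and 8.10 units, all below the floor. The cannabinoid receptor Cnr1, which is known to be abundant on axon terminals of hippocampal interneurons, gave 16.3, 9.85, 18.2 and 20.6 units, also below the floor in every sample. Cnr2, a receptor of immune cells, gave 2.65, 2.95, 7.70 and 2.73 units. In the same samples the cannabinoid-degrading enzymes Faah and Mgll gave 850.3, 547, 672 and 849 units and 695, 608, 676 and 514 units. A signal below the floor of a single probe set, as for Cnr1 and Oprm1, does not show that the transcript was absent.

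Of the receptors for neuropeptide Y and somatostatin, those of Npy2r, Sstr2 and Sstr4 were analysed. Npy2r, a Gi-coupled receptor that acts on axon terminals, was read by 2 analysed probe sets: 100703_at gave 165, 202, 105 and 100.3 units and 162037_f_at gave 563, 822, 517 and 772 units. Both were highest in sample 2, but sample 4 was the lowest for the first and the second highest for the other. Sstr4, a Gi-coupled somatostatin receptor of hippocampus, gave 426, 450.5, 437 and 541 units, a mean of 464 ± 52.9 (SD, n = 4) and a 1.27-fold span, highest in sample 4. Sstr1 gave 19.9, 7.33, 39.98 and 11.9 units, Sstr3, the receptor of neuronal primary cilia, gave 29.6, 20.7, 21.2 and 42.2 units, and Sstr5 gave 50.8, 39.4, 69.1 and 42.0 units. These somatostatin receptors lay under the filter, Sstr1 above the floor in sample 3 only. Npy5r (12.03, 10.7, 14.7 and 14.2 units) and Npy4r (11.5 to 22.2 units) were below the floor throughout, and Npy6r ranged from 38.7 to 56.2 units.

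Probe sets of 1 gene disagreed in part on the order of the samples, for the 6 genes with several. A suffix of f, g, r or s in a name refers to how the probes of the set were chosen, and the suffixes differ in meaning. The analysed probe sets of Htr4 (95322_g_at), Chrne (92967_r_at) and Oprl1 (104474_s_at) all carry one. Whether probe sets with these suffixes, among them also the higher Npy2r probe set, read other transcripts as well was not tested. Sstr2 was read by 3 analysed probe sets, which gave 148, 133, 96.2 and 87.6 units (98350_at), 229, 122, 162 and 188 units (98351_g_at) and 159, 120.0, 154 and 145 units (98352_r_at). All were highest in sample 1, but 98350_at was lowest in sample 4 and the others in sample 2. For Npy1r, a receptor of dentate and pyramidal cells, 93007_at gave 98.03, 106, 68.5 and 94.8 units and 93128_at gave 14.8, 70.5, 46.9 and 52.6 units, both highest in sample 2. Sample 1 was second highest by the first and below the floor by the second. The Htr4 probe sets outside the filter gave 8.12, 5.55, 3.55 and 7.70 units (95321_at) and 51.3, 49.2, 43.1 and 36.6 units (95323_at), and those of Chrne gave 30.6, 28.2, 29.5 and 31.1 units (92965_at) and 9.93, 8.49, 13.1 and 20.6 units (92966_g_at). The probe sets of a gene thus ranged from below the floor to above the filter for both Htr4 and Chrne. For Chrng, 161215_at gave 51.4, 72.6, 77.6 and 52.9 units and 95639_at gave 29.98, 69.05, 57.1 and 43.8 units, both higher in samples 2 and 3 than in samples 1 and 4.

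**Figure D4:**
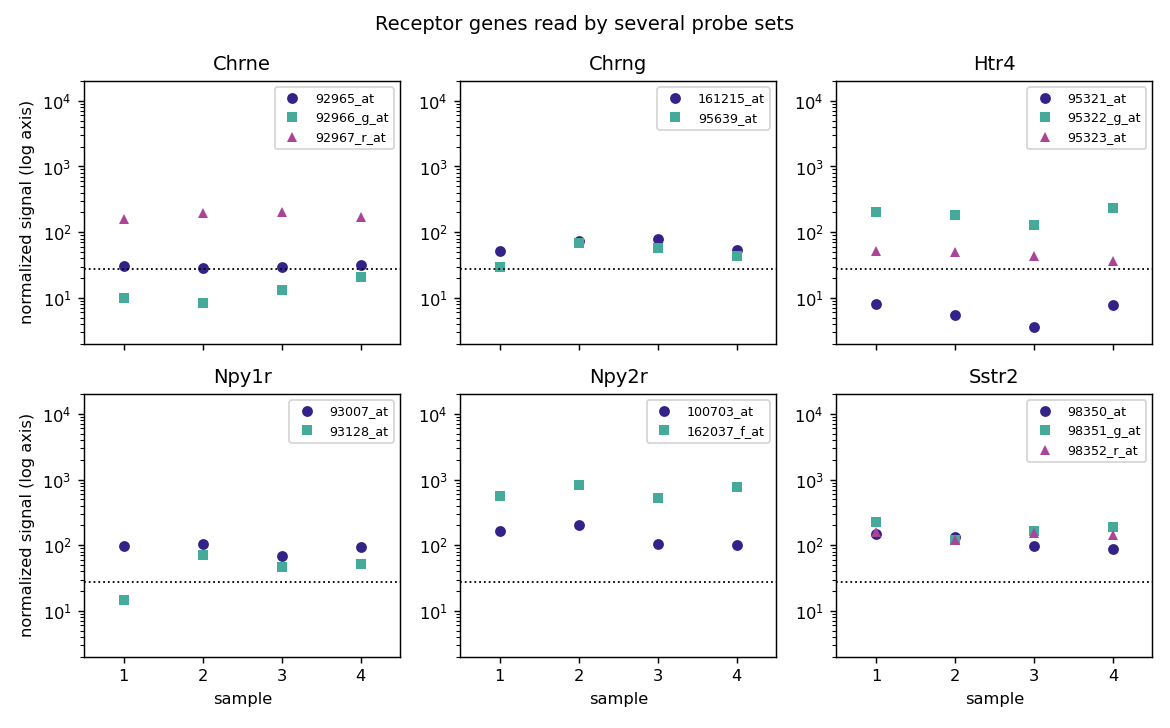
Normalized signal (log axis) in samples 1 to 4 for the 6 receptor genes read by several probe sets, with 1 marker type per probe set and the floor as a dotted line. The Htr4 and Chrne probe sets lie at separate levels, and the Npy2r probe sets differ in the place of sample 4.

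Among receptor probe sets too low for analysis, 10 of 33 (30.3%) spanned at least 2-fold once values under the floor were set to it, against 30.8% of all probe sets under the filter. The widest were Chrnd (at least 3.96-fold) and Chrna6 (at least 3.09-fold), both with 1 sample below the floor. These spans lie near the floor and carry no test.

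Genes that make, move or break down the amines and acetylcholine likewise gave no call of the variance test. Of 25 listed, 16 were measured and 8 analysed, 2 spanned at least 2-fold (against 14.4% of all analysed probe sets), and 0 passed limma's variance test at an adjusted p of 0.05, with 0 of 8 also at an unadjusted p under 0.05 (against 5.86%). Ache, which degrades acetylcholine, gave 704, 573, 528 and 556 units, and Qdpr, which regenerates the cofactor of amine synthesis, gave 2315, 2856, 2078 and 2291 units. Ddc, the decarboxylase that completes dopamine and serotonin synthesis, had the widest span, with 61.05, 88.5, 138 and 194 units. The list's median log2 deviations were 0.09, 0.13, -0.20 and 0.01 in samples 1 to 4, lowest in sample 3. Slc18a3, the vesicular acetylcholine transporter of cholinergic neurons, was below the floor in every sample.

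Of 16 listed genes for the peptide, adenosine and cannabinoid ligands and their enzymes, 13 were measured and 10 analysed, 2 spanned at least 2-fold (against 14.4%), and 0 passed the variance test, with 1 at an unadjusted p under 0.05 (against 5.86%). Sst gave 2599, 3339.6, 2676 and 2621 units and was highest in sample 2. Cort, which encodes the related peptide cortistatin, had the widest span and was also highest there, with 151, 442, 136 and 262 units. Npy gave 772, 915, 619 and 878 units, highest in sample 2 as were both probe sets of its receptor Npy2r. The median log2 deviations of the list were 0.21, -0.08, -0.15 and 0.11.

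Of 20 listed regulators of these receptors and nicotinic chaperones, 13 were measured and 10 analysed, 2 spanned at least 2-fold (against 14.4%), and 0 passed the variance test, with 0 at an unadjusted p under 0.05 (against 5.86%). Vsnl1, a calcium sensor that aids surface expression of a nicotinic receptor, gave 4560.0, 4121, 3825 and 2899.8 units, lowest in sample 4. Ly6h, a protein that restrains alpha7 receptors, gave 2695, 2657, 2564 and 2489 units and kept within 1.08-fold. Rgs2, which shortens Gq signals, had the widest span of those analysed, with 118, 133, 176 and 81.6 units, and was also lowest in sample 4. The median log2 deviations were 0.05, 0.02, -0.01 and -0.12, the lowest in sample 4.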

How the data were processed

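Total RNA from 4 hippocampus samples was measured on 1 array each. The values deposited by the authors are linear intensities; the software that made them is not given in the sources used here. The mean of each array without the lowest and highest 2% of probe sets was 250.1 units, so the arrays had been scaled before deposit. Here, 66 control probe sets were left out, arrays were quantile normalized (limma 3.58.1, R 4.3.3), values were floored at the 25th percentile (27.7 units) and taken to log2. The array design comes from the probe annotation. Probe sets with a mean log2 above the median were analysed (6211). Each variance was tested against the robust intensity trend with a one-sided F test (limma; degrees of freedom 3 residual, 5.20 prior), adjusted by Benjamini and Hochberg over all analysed probe sets at 0.05. The test was tested on simulated data with known shifts: it recovered very large ones, but missed shifts wider than any span of the analysed receptors. Signals in the text precede the floor, and a span that touches it is a lower bound. Symbols were updated through Entrez identifiers to the RefSeq table of GRCm38.p6, which changed 0 of 53. The annotation gave 1 symbol to 10833 probe sets, several to 396 and none to 1193; those with 1 symbol were named.

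The receptor families and the context lists were chosen with earlier results of these data known. Values of every sample are given for the 12 analysed receptor probe sets with the largest range, the highest mean of each family, all probe sets of a gene that has several and at least 1 analysed, and a fixed list of receptors known from hippocampus; of each context list, for the 2 analysed genes with the highest mean and that with the largest range. Other genes were named after their values were seen. Alternatives covered the normalization, the floor, the signal filter, the variance test, 1 probe set per gene and the omission of each sample. Coordinates are given only for the 2 printed promoter windows, on GRCm38.p6.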

Additional observations from a re-analysis of the deposited data

Results flagged for a closer look

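In each of 40 named probe sets with a range above 0, the highest or lowest sample was compared with the nearest of the others, as the share of the whole range that the gap takes, and 9 exceeded Dixon's 95% critical value for 4 samples. Chance alone gives about 1 in 20 such results, and among all analysed probe sets the share was 6.02%, with sample 4 apart in 3.16%. Neither share is a matched background for the 9 of 40. The 40 include probe sets under the signal filter, and some were named for their large range. Among the 20 analysed receptor probe sets, 4 exceeded it, all with sample 4 apart. They were Chrna7 (0.933) and Adra2c (0.890), with sample 4 lowest, and Drd2 (0.863) and Htr3a (0.8292, just past the critical value), with sample 4 highest. For Drd2 the whole range was only 1.14-fold.

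Of the receptor probe sets under the signal filter, Sstr3 (0.841) had sample 4 highest. Its signals in samples 2 and 3 were both set to the floor, so the ratio rests in part on the floor. The range of Sstr3 was 0.61 log2 units, and 0.99 without a floor. Chrnb2 (1), with sample 4 highest, and Htr2c (1) and Sstr1 (1), with sample 3 highest, reached the full ratio because the other samples were all at the floor. The peptide gene Sst (0.884) had sample 2 highest, at 3339.6 units. In sample 4 the ratio of 3′ to 5′ signal was also the highest for beta-actin (2.03) and Gapdh (1.15), and the part of this in these values was not tested.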

How the results depend on the processing

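The number of probe sets past the variance test was 0 over all analysed probe sets and 0 among the receptors under every alternative run, with 299 to 1224 probe sets and 0 to 6 receptor probe sets at an unadjusted p under 0.05 and a smallest adjusted p between 0.113 and 0.948. The number of receptor probe sets spanning at least 2-fold was 3 and ranged from 0 to 3 when single samples were left out, with 0 without sample 4. The median log2 range of 0.57 became 0.37 to 0.49 without single samples and 0.47 with 1 probe set per gene. With no filter on low signal, all 53 receptor probe sets entered, and 13 spanned at least 2-fold (24.5%, against 22.6% of all probe sets). Of the 53, 10, 9, 11 and 13 were highest in samples 1 to 4 (against 20.7%, 18.8%, 19.6% and 26.4% of all). The median deviation was then 0 in each of samples 1 to 4. With single samples left out, 6 to 8 were highest in sample 1, 6 to 7 in sample 2, 5 to 6 in sample 3 and 8 in sample 4. Fewer samples share the highest values in these runs, so each count tends to rise, and shares of all analysed probe sets are not given. The median deviation of sample 4 lay between -0.0081 and 0.17 with single samples left out. Of the 36 named receptor spans, 10 moved by more than 1 SD without sample 4, against 1, 4 and 4 without samples 1, 2 and 3, 9 with no floor, 9 with a floor at the 40th percentile, 2 on deposited values, 1 with median scaling and 0 with no filter. That of Chrna7 was 0.12 log2 units without sample 4 and 1.72 to 2.10 under the alternatives of normalization and floor. No paired analysis was possible because all samples form 1 group. A count of 0 that the test could hardly exceed says nothing about stability, and without detection calls low signals cannot be told from background.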
